A study of Mus musculus with 6 samples.

Results

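The 10 genes described here are Trp53, which encodes the transcription factor p53, the p53 regulators Mdm2, Mdm4, Ppm1d and Ccng1, and the p53 targets Btg2, Zmat3, Trp53inp1, Phlda3 and Eda2r. They were taken by gene symbol, all 10 of 10 from the 38926 genes counted, and all 10 were among the 13646 genes that passed the filter on low counts and were tested. RNA was sequenced from hematopoietic stem cells (HSCs) sorted by surface markers from mouse fetal liver at stage E14.5. The 3 control samples were Vav-Cre; Dpy30F/+ and the 3 knockout samples Vav-Cre; Dpy30F/-, with 1 of each genotype from each of 3 litters, and values by sample are given below in litter order. Both genotypes carried the Cre transgene, which the Vav promoter drives in blood-forming cells, and 1 floxed Dpy30 allele. The other allele was intact in controls and null in knockouts, so control cells in which Cre acted keep 1 working allele. The series asks what loss of Dpy30, a core subunit of the complexes that methylate lysine 4 of histone H3, does to transcripts of these cells. The labels do not say how many embryos made up a sample.

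p53 protein is made continuously and held low because the ubiquitin ligase MDM2, with its partner MDM4, marks it for destruction. Stress that blocks this step lets p53 protein build up without any need for more Trp53 transcript, and p53 then switches on genes that halt the cell cycle, repair DNA or lead to cell death. Some of its targets restrain p53 in turn and form feedback loops, among them Mdm2, the phosphatase gene Ppm1d and the cyclin gene Ccng1. In HSCs p53 is known for its part in quiescence and in the removal of damaged cells.

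The sequences shown first are stretches of the promoters in which a half-site of the p53 consensus was found, since p53 acts on its targets by binding pairs of such half-sites. The half-site has 10 bases, with a central C, 2 bases that are each A or T, and G, flanked by 3 purines before and 3 pyrimidines after. RefSeq promoter windows of 300 bases (250 before to 50 after the start, build GRCm38.p6) matched 8 of the 10 genes by symbol, with 9 windows in all. Zmat3 and Trp53inp1 had none in that table. Each stretch is printed 5′ to 3′ on the strand of its gene, in lower case with the half-site in capitals.
Trp53, chr11:69580229-69580348, plus strand: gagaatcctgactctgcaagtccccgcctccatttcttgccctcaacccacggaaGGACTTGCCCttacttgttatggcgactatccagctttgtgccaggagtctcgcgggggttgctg
Mdm2, chr10:117710880-117710999, minus strand: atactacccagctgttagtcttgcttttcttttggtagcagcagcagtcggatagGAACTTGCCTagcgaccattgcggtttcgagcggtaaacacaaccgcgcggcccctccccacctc
Ppm1d, chr11:85311067-85311186, plus strand: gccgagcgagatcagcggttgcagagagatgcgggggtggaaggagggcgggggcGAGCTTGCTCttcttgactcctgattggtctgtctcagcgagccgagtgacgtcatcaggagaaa
Ccng1, chr11:40755407-40755526, minus strand: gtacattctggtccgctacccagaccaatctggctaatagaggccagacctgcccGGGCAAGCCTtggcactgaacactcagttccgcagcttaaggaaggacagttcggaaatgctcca

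The half-site was thus in the window of 4 of the 8 genes, against 8.36% of all 32851 windows and 9.55% of all 27025 genes with a window. Its first base lay 75 bases before the start in Trp53, 186 in Mdm2, 132 in Ppm1d and 185 in Ccng1. A full site, 2 half-sites with a spacer of 0 to 13 bases, was in the window of 0 of the 8 genes and in 0.0731% of all windows. Both strands were covered, since the pattern is its own reverse complement. No match says only that these letters are not in this window, and p53 sites outside it, such as those known in the first intron of Mdm2, were not searched. The genes with a half-site in the window were the 3 regulators with feedback roles and Trp53 itself. They include both the gene with the smallest p of the 10, Ccng1, and the gene with the estimate nearest 0, Trp53.

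Total counts assigned to genes were 35559444 to 43394700 in controls and 31897737 to 36679347 in knockouts, of which 49.2% to 67.7% came from mitochondrial genes. Dpy30 itself had 24.6, 24.2 and 31.6 CPM (counts per 1000000 on library sizes adjusted with the TMM method) among controls and 7.93, 5.95 and 13.7 among knockouts, every knockout below every control (log2 fold change -1.55, edgeR adjusted p = 0.672). Knockouts 2 and 3 each stood apart in cell type markers. In knockout 2 the 5 endothelial markers summed to 134.6 CPM, against 1077 to 1709 CPM in the other 5 samples, with Stab2 at 24.6 CPM against 317 to 534 CPM. In knockout 3 the 12 HSC markers summed to 299 CPM, against 683 to 724 in controls and 799 and 919 in knockouts 1 and 2. In every sample but knockout 2 the endothelial sum was above the HSC sum, though sums over different genes do not give cell numbers. The 11 macrophage markers summed to 1023 CPM in knockout 3, 636 and 243 in knockouts 1 and 2, and 303 to 495 in controls, and the 10 granulocyte markers to 403 CPM in knockout 3, 69.6 and 147.9 in knockouts 1 and 2, and 59.5 to 124 in controls. Of the 10 macrophage markers tested, 8 had a log2 fold change (knockout over control) above 0 and 4 had every knockout above every control, and of the 6 granulocyte markers tested 6 and 1 did, where 50.8% and 6.39% of all tested genes did. The low macrophage sum of knockout 2 came from Mrc1 and Vcam1. They stood at 26.4 and 2.315 CPM there, against 179.5 to 358.6 and 22.4 to 50.1 CPM in controls. Both were lowest in the sample with the lowest endothelial sum. In controls Mrc1 alone gave 179.5, 358.6 and 195.9 CPM of macrophage sums of 302.9, 495.3 and 310.2 CPM. The macrophage sums thus rest largely on a marker that was low where the endothelial markers were low. Whether Mrc1 and Vcam1 came from endothelial cells was not tested. The 4 macrophage markers with every knockout above every control were Csf1r, C1qb, Cd68 and Timd4. Csf1r stood at 8.91 to 39.1 CPM in controls and 75.7 to 141 CPM in knockouts. C1qb stood at 8.60 to 12.7 CPM in controls and 30.9 to 94.7 CPM in knockouts. Of the granulocyte markers Ly6g was at 0 counts in every sample. The 7 T cell markers, of which Cd3e, Cd3g, Cd3d and Trac were at 0 in every sample, summed to 1.86 to 8.67 CPM in controls and 12.1 to 66.8 CPM in knockouts. Within that sum Tcrg-C1 stood at up to 0.053 CPM in controls and 6.48 to 50.04 CPM in knockouts, while Thy1 stood at 0.587 to 7.11 CPM in controls and up to 0.854 CPM in knockouts. The 7 mast cell and basophil markers summed to 0.0691 to 5.48 CPM in controls and 6.42 to 17.9 CPM in knockouts. Cma1, Tpsb2 and Fcer1a were at 0 in every sample. Cpa3 alone stood at 0.0691 to 3.72 CPM in controls and 4.08 to 17.9 CPM in knockouts. Ms4a2 and Prss34 reached 0.722 and 0.363 CPM in controls and were at 0 in every knockout. Mcpt8 reached 1.04 CPM in controls and, among knockouts, was above 0 only in knockout 2, at 2.34 CPM. The 7 hepatocyte markers summed to 5.25 to 21.6 CPM in controls and 3.28 to 5.06 CPM in knockouts, and the 9 erythroid markers to 896 to 1554 CPM and 765 to 2316 CPM. The erythroid markers did not move together, with 5 of the 9 at a log2 fold change above 0. Tfrc stood at 332 to 381 CPM in controls and 96.6 to 146.7 CPM in knockouts. Hbb-bs gave 1249 CPM of the 2316 CPM in knockout 3. The part of such cells in the results on the 10 genes was not tested. In bulk RNA, fewer cells of a type and less RNA per cell cannot be told apart.

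Across the 10 genes, Trp53 transcript differed least between the genotypes, and the estimates for the other 9 were all above it. All 10 had a log2 fold change (knockout over control) above 0, where 50.8% of all tested genes did, and the median was 1.31 against 0.015 over all 13646 genes. In edgeR's quasi-likelihood test with Benjamini-Hochberg adjustment over all genes tested, 0 of the 10 passed an adjusted p of 0.05, and 0% of all genes did. At an unadjusted p under 0.05 edgeR had 4 of the 10 (Ccng1, Zmat3, Mdm2 and Trp53inp1), all higher in the knockout, against a background of 6.51% in either direction and 4.26% for higher genes. DESeq2 called 1 of the 10, Ccng1, where it called 1.02% of all genes, and with litter as a block it again called 1 of the 10, against 1.98%. Of the 10, 6 had a log2 fold change above 1, against 13.5% of all genes. Without knockout 3, edgeR had 1 of the 10 at an unadjusted p under 0.05 and 1125 of 14774 genes, all 10 estimates were still above 0, and their median was 0.61. Without knockout 2 these values were 4 of the 10, 1470 of 14732 genes, all 10 and 1.25. The choice of these genes was made with earlier results of these data known, so these counts are a description.

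**Figure D1:**
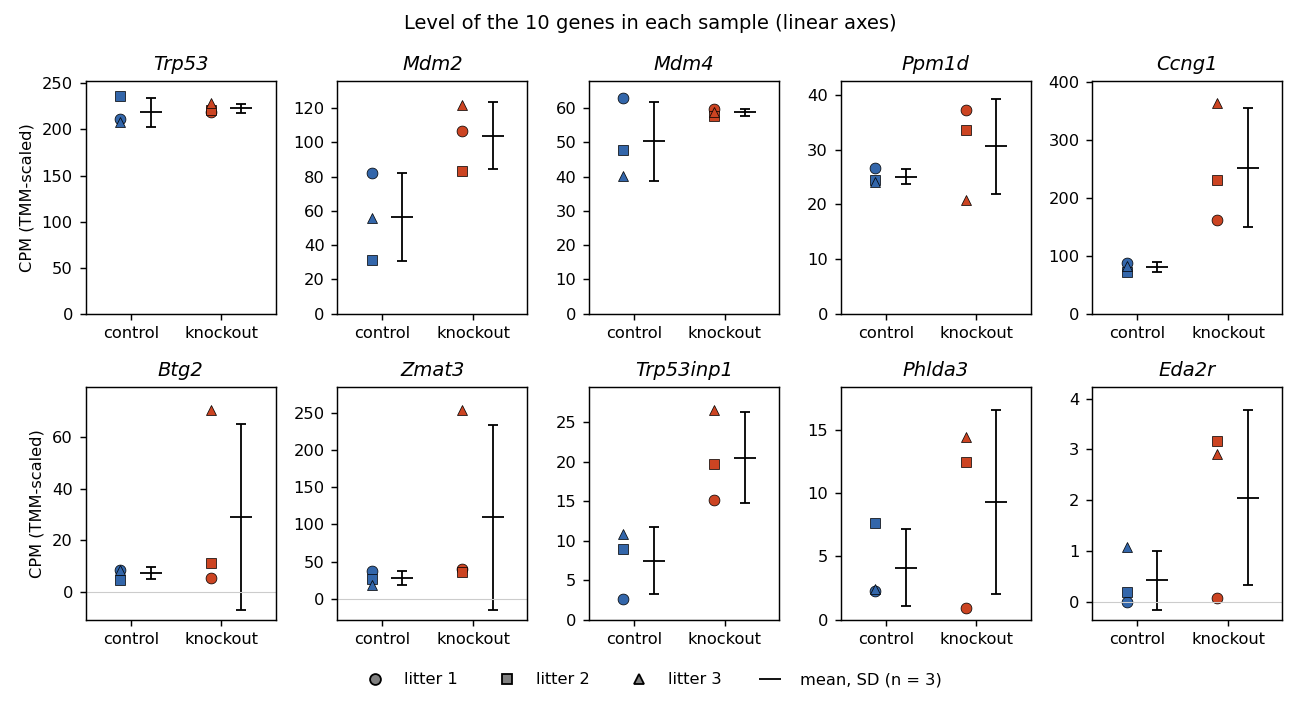
Level of each of the 10 genes by sample, in CPM on a linear axis whose range differs between panels; points are samples (shape gives the litter), and the bar and whiskers are the mean and SD of 3 samples, which reach below 0 where 1 sample is far above the rest. Trp53 lies between 208 and 237 CPM in all 6 samples, Ccng1, Mdm2 and Trp53inp1 are higher in every knockout than in any control, and the high means of Btg2 and Zmat3 in knockouts come from litter 3.

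Trp53 (ENSMUSG00000059552.13, chromosome 11, 69580359 to 69591873, plus strand, GRCm38) stood at 212, 237 and 208 CPM among controls and at 219, 221 and 228 CPM among knockouts. The knockout values all lay within the range of the controls. Controls averaged 219 ± 15.6 CPM and knockouts 223 ± 4.89 CPM (SD, n = 3 each), with a log2 fold change of 0.027 (SE 0.18, 95% interval -0.39 to 0.45; edgeR adjusted p = 0.990). Knockout minus control, in log2 CPM, was 0.048, -0.097 and 0.14 in litters 1 to 3. The sign of so small an estimate turned with the scaling, to -0.094 with upper-quartile factors, and its interval ends below the start of that of Ccng1. Over the 6 samples the SD of log2 CPM of Trp53 was 0.069. Of the 8513 genes with a mean of at least 5 CPM, excluding predicted genes and RIKEN clones, 4 had a smaller SD, and the median SD was 0.62. That rank rests on the scaling, since 469 of these genes (5.51%) were less variable than Trp53 under plain CPM by library size, where its SD was 0.27. The pseudogene Trp53-ps held 0 to 18 counts per sample beside the 6134 to 9156 of Trp53, and reads that fit both may have been split or lost.

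Mdm2 encodes the ubiquitin ligase that limits p53 and is itself switched on by p53 (chromosome 10, 117688875 to 117710758). It had 82.3, 31.2 and 55.7 CPM among controls and 106, 83.1 and 122 CPM among knockouts. Every knockout was above every control, though knockout 2 exceeded control 1 by less than 1 CPM. The log2 fold change was 0.88 (SE 0.37, 95% interval 0.036 to 1.73; edgeR adjusted p = 0.759, unadjusted p = 0.043), and it was 0.37, 1.41 and 1.131 within litters 1 to 3. The controls spread over 2.64-fold, more than the knockouts did (1.47-fold).

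Mdm4, whose protein resembles MDM2 and blocks the activating part of p53 (chromosome 1, 132959484 to 133030561), had 62.9, 47.9 and 40.1 CPM among controls and 59.9, 57.7 and 58.7 CPM among knockouts. The knockouts were within 1.04-fold of each other and inside the range of the controls. Its log2 fold change was 0.23 (SE 0.27, 95% interval -0.39 to 0.84; edgeR adjusted p = 0.926), and ran from 0.086 without control 3 to 0.42 without control 1. The pseudogene Mdm4-ps held 14 to 45 counts per sample, against 1768 to 2380 for Mdm4.

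Ppm1d encodes WIP1, a phosphatase that reverses the activating phosphorylation of p53 and of the kinases upstream of it (chromosome 11, 85311244 to 85347066). Its level was 26.7, 24.4 and 24.1 CPM among controls and 37.3, 33.7 and 20.9 CPM among knockouts. Knockouts 1 and 2 were above all controls and knockout 3 was below them. The log2 fold change was 0.29 (SE 0.35, 95% interval -0.52 to 1.10; edgeR adjusted p = 0.927), and ran from 0.12 without knockout 1 to 0.51 without knockout 3.

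Ccng1, which encodes cyclin G1, a p53 target whose protein acts on MDM2 through a phosphatase (chromosome 11, 40748552 to 40755311), had 88.1, 71.03 and 82.0 CPM among controls and 161, 230 and 364 CPM among knockouts. The controls were within 1.24-fold of each other and the lowest knockout was above the highest control. The log2 fold change was 1.65 (SE 0.32, 95% interval 0.92 to 2.37; edgeR adjusted p = 0.571, unadjusted p = 0.00079), with 0.87, 1.69 and 2.15 within litters 1 to 3. DESeq2 called it (log2 fold change 1.67, DESeq2 adjusted p = 0.000746), as did DESeq2 with litter as a block (1.59, adjusted p = 0.00096). Without knockout 3 the edgeR value was 1.29.

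Of the 4 regulators, then, Ccng1 and Mdm2 were higher in every knockout, while Mdm4 and Ppm1d overlapped between the genotypes. Over the 10 genes, 3 (Ccng1, Mdm2 and Trp53inp1) had every knockout above every control, against 6.39% of all tested genes. These 3, Zmat3 and Eda2r made 5 that were higher in the knockout of all 3 litters, against 12.3%. In litter 1 Zmat3 was higher by only 0.061 in log2 CPM, and Eda2r had 0 counts in the control and 3 in the knockout.

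Trp53inp1 encodes a stress protein that supports p53 phosphorylation and autophagy (chromosome 4, 11156431 to 11174379). It had 2.69, 8.93 and 10.9 CPM among controls and 15.2, 19.8 and 26.6 CPM among knockouts. Every knockout was above every control, and control 1, with 78 counts, was the lowest by far. The log2 fold change was 1.45 (SE 0.61, 95% interval 0.036 to 2.87; edgeR adjusted p = 0.762, unadjusted p = 0.046), and 1.05 without control 1.

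Zmat3 encodes a zinc finger RNA-binding protein that p53 switches on (chromosome 3, 32334792 to 32366014). It had 37.9, 27.0 and 19.3 CPM among controls and 39.5, 36.3 and 253 CPM among knockouts. Knockout 3 was 6.41-fold above the next knockout, and knockouts 1 and 2 lay close to control 1. The log2 fold change of 1.97 (SE 0.75; edgeR adjusted p = 0.736, unadjusted p = 0.031) became 0.45 without knockout 3 (edgeR adjusted p = 0.837).

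Btg2, a p53 target that restrains cell division and promotes mRNA decay (chromosome 1, 134075170 to 134079120), showed the same dependence on 1 library. Its level was 8.50, 4.60 and 8.76 CPM among controls and 5.49, 11.3 and 70.3 CPM among knockouts. Knockout 1 lay inside the range of the controls, and knockout 3 was 6.22-fold above the next knockout. The log2 fold change of 1.99 (SE 0.91; edgeR adjusted p = 0.775, unadjusted p = 0.060) became 0.22 without knockout 3 (edgeR adjusted p = 0.972). Knockout 3 is the library in which the sum of the HSC markers was lowest and those of the macrophage and granulocyte markers were highest. Not every marker followed its sum. The HSC marker Gfi1b stood at 64.5 CPM in knockout 3, above knockouts 1 and 2 (17.8 and 32.4 CPM). Cd68 was higher in knockout 2, and Ngp in control 1, than in knockout 3. The part of HSCs, macrophages and granulocytes in the values of Btg2 and Zmat3 was not tested.

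Phlda3, whose protein keeps the kinase AKT from the membrane (chromosome 1, 135766119 to 135769136), had 2.25, 7.65 and 2.45 CPM among controls and 0.956, 12.5 and 14.4 CPM among knockouts. The lowest and the highest values were both in knockouts. Its log2 fold change was 1.17 (SE 1.05, 95% interval -1.25 to 3.59; edgeR adjusted p = 0.894), with 1.97 without control 2 and 0.71 without knockout 3.

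Eda2r, a receptor of the tumor necrosis factor receptor family that binds ectodysplasin A2 (chromosome X, 97333840 to 97377216), was the rarest of the 10. It had 0, 7 and 48 counts among controls and 3, 115 and 102 counts among knockouts, or at most 1.09 CPM in controls and 3.17 CPM in knockouts. With 0 counts in control 1, the depth allows a level of up to that of 3 counts, 0.104 CPM, and knockout 1 was at the level of 3 counts. Within each litter the knockout was higher, but the groups overlapped, and the log2 fold change of 2.25 (SE 1.89, 95% interval -2.10 to 6.60; edgeR adjusted p = 0.883) was the least precise of the 10. It became 4.38 without control 3.

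**Figure D2:**
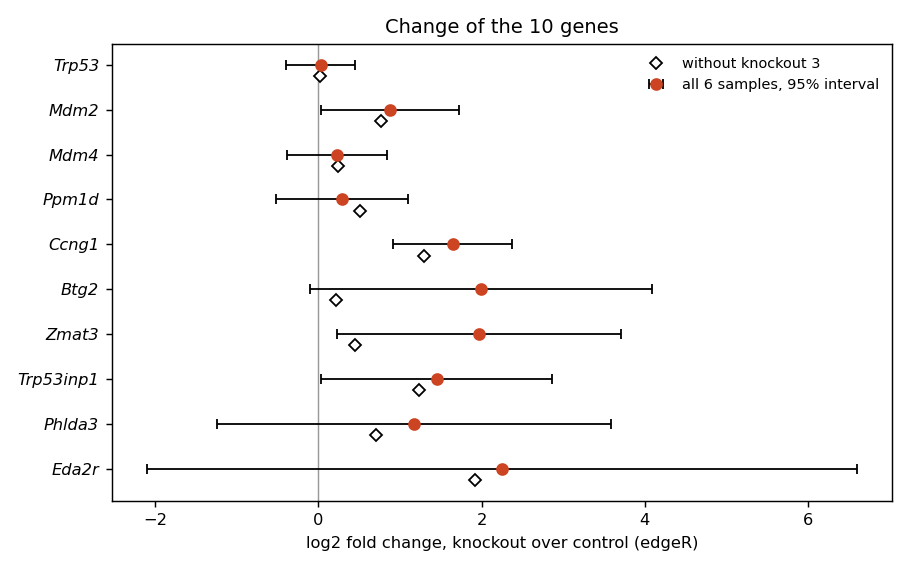
Log2 fold change (knockout over control, edgeR) of the 10 genes with its 95% interval from all 6 samples (filled circles) and the value without knockout 3 (open diamonds). The interval of Trp53 is centred near 0, that of Ccng1 runs from 0.92 to 2.37, and the values of Btg2 and Zmat3 are 0.22 and 0.45 without knockout 3.

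Among the 5 targets with effector roles, then, Trp53inp1 alone separated the genotypes in these 6 samples, Btg2 and Zmat3 were far higher in knockout 3 alone, and Phlda3 and Eda2r were high in knockouts 2 and 3 but not in knockout 1. Knockout 1 had the lowest Ccng1, Btg2, Trp53inp1, Phlda3 and Eda2r of the 3 knockouts, and the highest Ppm1d. Mdm4 hardly differed among the 3 knockouts (within 1.04-fold).

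The Trp53 transcript was set against the other 9 genes by the log2 ratio of counts within each sample, which does not depend on scaling between libraries. The count of Ccng1 was 41.6%, 30.02% and 39.5% of the Trp53 count among controls and 73.6%, 104% and 159% among knockouts. The log2 ratio averaged -1.45 ± 0.25 over controls and 0.094 ± 0.56 over knockouts (SD, n = 3 each), a difference of 1.54 (two-sided exact permutation p = 0.1, the smallest that 3 against 3 can give; adjusted over 9 ratios p = 0.45). It was higher by 0.82, 1.79 and 2.01 in litters 1 to 3. The Trp53inp1 count was 1.27%, 3.78% and 5.23% of that of Trp53 among controls and 6.94%, 8.93% and 11.6% among knockouts, a log2 difference of 1.61 (exact permutation p = 0.1, adjusted 0.45). For these 2 of the 9 genes every knockout ratio exceeded every control ratio, where 6% of the 13645 tested genes other than Trp53 did.

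Mdm2 was 38.9%, 13.2% and 26.8% of the Trp53 count among controls and 48.6%, 37.6% and 53.4% among knockouts. Its log2 difference was 0.94, with control 1 above knockout 2 (exact permutation p = 0.2, adjusted 0.45). Thus the separation of Mdm2 seen in CPM was not kept in the ratio to Trp53. The ratio was higher in the knockout of all 3 litters for 5 of the 9 genes (Mdm2, Ccng1, Zmat3, Trp53inp1 and Eda2r), against 12.1% of those genes, though by only 0.013 in litter 1 for Zmat3. In that litter Eda2r had 0 counts in the control and 3 in the knockout. For Mdm4 and Ppm1d the differences were 0.22 and 0.22 (exact permutation p = 0.4 and 0.5). Those of Zmat3, Btg2, Phlda3 and Eda2r were 1.37, 1.19, 0.65 and 2.55 (exact permutation p = 0.2, 0.4, 0.8 and 0.3). Without knockout 3 the difference was 0.48 for Zmat3, 0.16 for Btg2 and -0.019 for Phlda3.

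**Figure D3:**
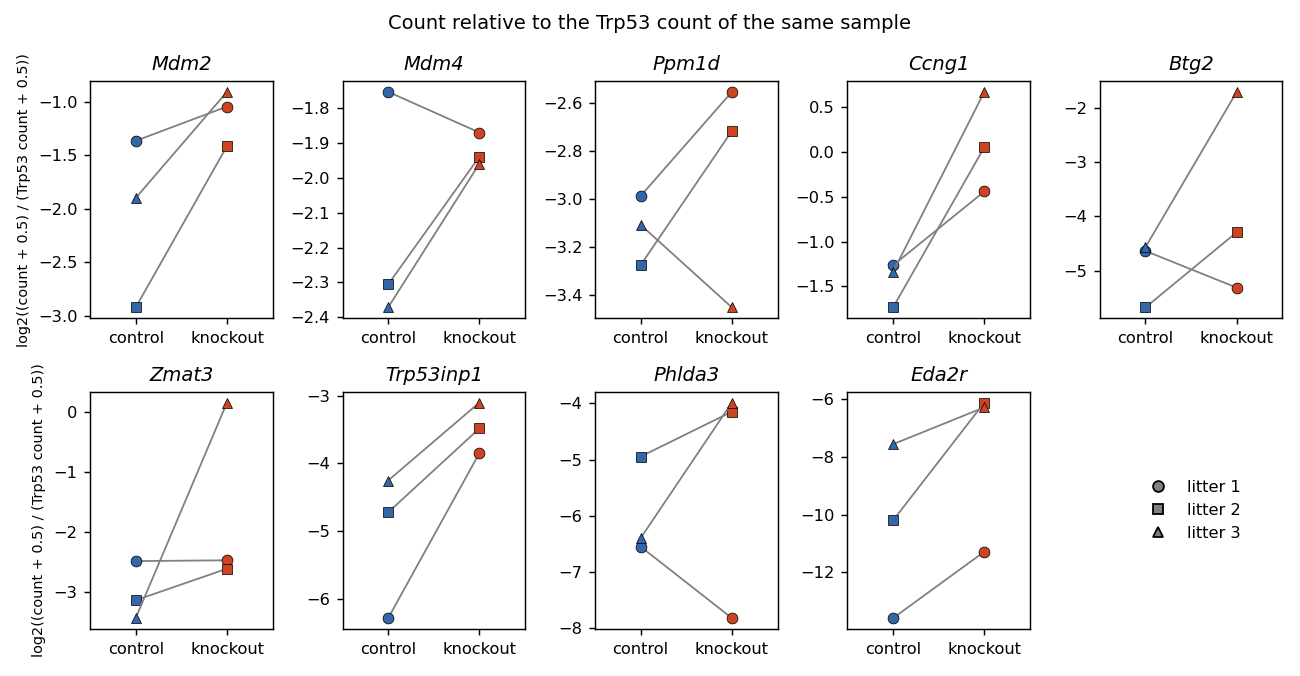
Log2 ratio of each gene's count to the Trp53 count of the same sample, with 0.5 added to both; lines join the control and the knockout of 1 litter, and the vertical range differs between panels. The Ccng1 and Trp53inp1 ratios are higher in every knockout than in any control, while the Zmat3 ratio differs by 0.013 in litter 1 and by 3.58 in litter 3.

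Compared per length (CPM per kilobase of the union of annotated exons, which can understate genes with long exon unions such as Mdm4 and Zmat3), the order of levels in controls was Trp53, Ccng1, Mdm2, Ppm1d, Mdm4, Btg2, Phlda3, Zmat3, Trp53inp1 and Eda2r. Trp53 stood at 54.1 ± 3.87 and Ccng1 at 22.9 ± 2.46 CPM per kilobase in controls (SD, n = 3 each), with no overlap between them or between Ccng1 and Mdm2. The neighbours Mdm2 and Ppm1d, Mdm4 and Btg2, Btg2 and Phlda3, and Phlda3 and Zmat3 overlapped in their ranges. In knockouts Ccng1, at 71.6 ± 29.3, had the highest mean and Trp53 followed at 55.1 ± 1.21 CPM per kilobase (SD, n = 3 each), but their ranges overlapped. Below them the order was Mdm2, Btg2, Ppm1d, Zmat3, Phlda3, Mdm4, Trp53inp1 and Eda2r, and from Mdm2 to Trp53inp1 each neighbour pair overlapped.

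Likeness of patterns was measured as the root mean square difference of log2 CPM over the 6 samples, each gene centred on its own mean, among 8512 other genes. The 3 genes most like Trp53 were Yme1l1 (0.055), Zdhhc21 (0.074) and Mctp1 (0.074), all of which, like Trp53, hardly varied. Among the other members Mdm4 was nearest to Trp53, at rank 522. The 3 genes most like Ccng1 were Ndufa2 (0.18), Pf4 (0.195) and Tspan14 (0.21), and Mdm2 was the nearest member, at rank 349. Eda2r was below the mean level needed for ranking. Pf4 is itself a marker of megakaryocytes, whose 6 markers summed to 107 to 161 CPM in controls and 105 to 198 CPM in knockouts. Of the 6, 2 (Pf4 and Gp1ba) had every knockout above every control, against 6.39% of all tested genes. Ppbp had every knockout below every control, and Vwf stood at 3.17 CPM in knockout 3, against 33.5 to 54.0 CPM in the other samples. The part of megakaryocytes in the Ccng1 values was not tested.

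Other p53 targets were listed in 2 groups by role. Of 21 listed for arrest and DNA damage response, 19 were tested, 0 passed in edgeR at an adjusted p of 0.05, and 4 had an unadjusted p under 0.05, all higher, against 4.26% of all genes. Their median log2 fold change was 0.43, and it was 0.10 without knockout 3. Of the 19, 12 were above 0, against 50.8% of all genes. Cdkn1a, which encodes the cell cycle inhibitor p21, had 1.93, 2.995 and 1.45 CPM among controls and 33.5, 92.5 and 164 CPM among knockouts (log2 fold change 5.51, edgeR adjusted p = 0.452, DESeq2 adjusted p = 2.19e-18). The knockouts kept the order of Ccng1, lowest in knockout 1 and highest in knockout 3. Sesn2, which encodes a stress sensor that restrains growth signalling, had a log2 fold change of 3.09 (edgeR adjusted p = 0.686), and Polk, which encodes a DNA polymerase that copies past damage, of 1.40 (edgeR adjusted p = 0.733). DESeq2 called 2 of the 19, Cdkn1a and Sesn2, against 1.02% of all genes, and the same 2 with litter as a block, against 1.98%. In edgeR Cdkn1a was called without a filter on low counts and with at least 10 counts in every sample. For 4 of the 19 every knockout was above every control, against 6.39% of all genes.

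Of 26 targets listed for apoptosis, autophagy and other roles, 23 were tested, 0 passed in edgeR or in DESeq2, and 3 had an unadjusted p under 0.05 in edgeR, all higher, against 4.26% of all genes. With litter as a block DESeq2 called 2 of them, against 1.98% of all genes. They were Perp and Sulf2 (DESeq2 adjusted p = 0.00896 and 0.0338), the latter named here after its value was seen. The median log2 fold change was 0.77, with 17 of 23 above 0, against 50.8% of all genes. For 8 of the 23 every knockout was above every control, against 6.39% of all genes. Among the listed targets with at least 10 counts in every sample the median was 0.041. Bbc3, which encodes the cell death protein PUMA, had 5, 1 and 4 counts among controls and 71, 46 and 111 among knockouts (edgeR adjusted p = 0.672). Aen, which encodes a nuclease active in apoptosis, had 12.1, 8.13 and 6.08 CPM among controls and 22.5, 23.2 and 21.7 CPM among knockouts (log2 fold change 1.36, edgeR adjusted p = 0.718). Perp, which encodes a membrane protein of cell junctions and cell death, had 0, 2 and 28 counts among controls and 206, 194 and 154 among knockouts (edgeR adjusted p = 0.733, and 0.00896 in DESeq2 with litter as a block). Every knockout was above every control for these 3 genes, and knockout 1 was not the lowest knockout for any of them.

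The genes upstream of p53 lay near the median of all genes. Of 22 kinases and cofactors, all tested, 0 passed in edgeR and 1 had an unadjusted p under 0.05, against 6.51% of all genes. The median log2 fold change was 0.046, a sign that turned with the scaling (-0.065 with upper-quartile factors). Of the 22, 13 were above 0, against 50.8% of all genes. The 1 gene with an unadjusted p under 0.05 was Hipk2, which encodes a kinase that phosphorylates p53. It had 200, 173 and 215 CPM among controls and 280, 373 and 649 CPM among knockouts (log2 fold change 1.15, SE 0.32; edgeR adjusted p = 0.642), every knockout above every control. DESeq2 with litter as a block called it (adjusted p = 0.0350), and DESeq2 without the block did not (adjusted p = 0.0629). The checkpoint kinase gene Chek1 had a log2 fold change of -1.09 and the histone methyltransferase gene Kmt5a, counted as Setd8, of -0.43, each with every knockout below every control (edgeR adjusted p = 0.797 for both). Of the 22, 3 had every knockout below every control, against 7.74% of all genes, and 1 had every knockout above, against 6.39%.

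Of 24 partners of MDM2 and MDM4, 23 were tested and 0 passed in edgeR. At an unadjusted p under 0.05 there were 5, 4 of them lower (2.24% of all genes were) and 1 higher (4.26% were). The median log2 fold change of the 23 was 0.021, and it was -0.086 with upper-quartile factors. Of the 23, 13 were above 0, against 50.8% of all genes. In 7 of the 23 every knockout was below every control, as in 7.74% of all genes. Gnl3, which encodes the nucleolar protein nucleostemin, a binder of MDM2, had 78.5, 93.2 and 87.8 CPM among controls and 30.04, 45.1 and 16.7 CPM among knockouts (log2 fold change -1.50, SE 0.38; edgeR adjusted p = 0.622 and DESeq2 adjusted p = 0.0347). Usp10, which encodes an enzyme that takes ubiquitin off p53, had a log2 fold change of -0.73 (edgeR adjusted p = 0.748), and Trim24, which encodes a ligase that acts on p53, of 1.30 (edgeR adjusted p = 0.672). Cdkn2a, whose locus also encodes the MDM2 inhibitor ARF, was too low to be tested.

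The p53 relatives Trp63 and Trp73 were too low to be tested. The ASPP family genes Ppp1r13b, Ppp1r13l and Trp53bp2, whose proteins bind p53, had log2 fold changes of 0.54, 1.57 and 0.77, and the groups overlapped for each (edgeR adjusted p = 0.866, 0.889 and 0.824). Of 16 relatives of the 10 genes, such as Ccng2, Btg1 and Ppm1a, 13 were tested. At an unadjusted p under 0.05 there were 0 of them, against 6.51% of all genes. The median log2 fold change was -0.23 with 4 above 0, against 50.8% of all genes. Under plain CPM by library size it was -0.00996 with 6 above 0. The 3 relatives with the smallest p were Tob2 (-0.67), Btg1 (-0.93) and Zmat1 (1.54), with edgeR adjusted p of 0.797, 0.873 and 0.875.

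Cell cycle genes that the DREAM complex represses when p21 is made were also listed. All 20 were tested, 0 passed in edgeR, and 3 had an unadjusted p under 0.05, all lower, against 2.24% of all genes. The median log2 fold change was -0.42, with 3 of the 20 above 0, against 50.8% of all genes. Under plain CPM by library size the median was -0.19 with 5 above 0. Cdc20, an activator of the ligase that ends mitosis, had 35.4, 24.9 and 32.6 CPM among controls and 8.35, 13.9 and 4.03 CPM among knockouts (log2 fold change -1.82, SE 0.52; edgeR adjusted p = 0.668). DESeq2 called it with litter as a block (adjusted p = 0.0458) and not without (adjusted p = 0.0778). Bub1b, a spindle checkpoint gene, had a log2 fold change of -0.58, and Mybl2, a cell cycle transcription factor gene, of -1.32 (edgeR adjusted p = 0.729 and 0.758). The knockouts lay under the controls for these 3, without overlap, as they did for 5 of the 20 in all, against 7.74% of all genes.

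**Figure D4:**
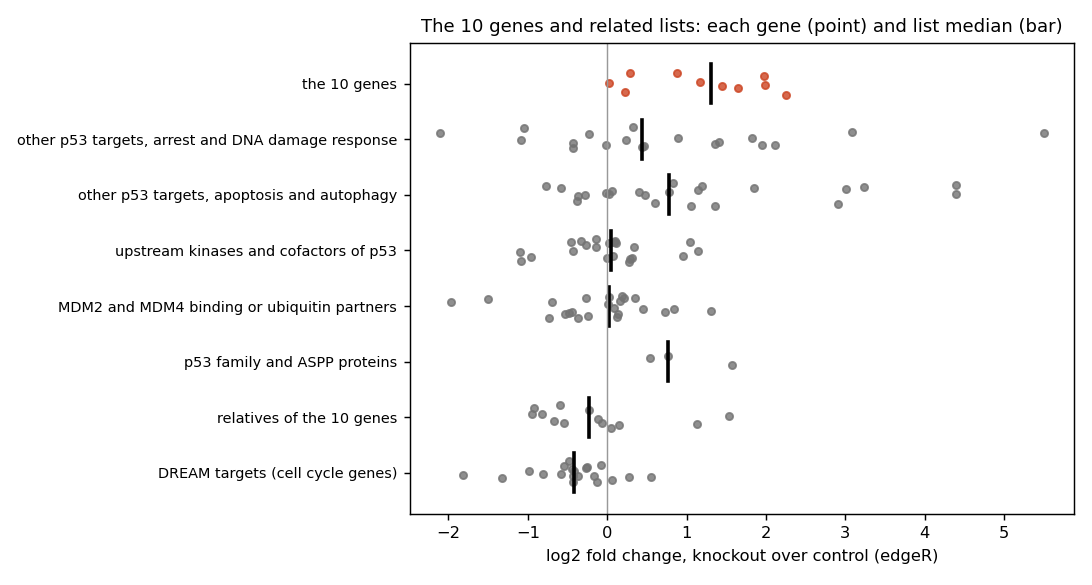
Log2 fold change (knockout over control, edgeR) of each tested gene (points, spread vertically at random) in the 10 genes and 7 related lists, with the list median (bar). The median is 1.31 for the 10 genes, 0.43 and 0.77 for the 2 lists of other p53 targets, near 0 for upstream genes and MDM2 partners, and -0.42 for DREAM targets.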

How the data were processed

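Poly(A) RNA of sorted fetal liver HSCs was sequenced from 3 control and 3 Dpy30 knockout samples. The authors deposited raw, whole-number counts by gene symbol, 1 file a sample, each ending with 5 htseq-count tallies of unassigned reads. The tallies hold 41.01% to 50.99% of reads and were left out. Per the submitters' processing notes, mm10, CASAVA 1.8.4, TopHat2, Picard 1.126, HTSeq 0.6.0, DESeq 3.0 and bedtools 2.17.0 were named, with no role or order. Strandedness, annotation and molecular tags are not given in the sources used here, so reads of overlapping genes on opposite strands could not be told apart (no exon of the 10 genes overlaps another gene in GENCODE vM21), and intervals and floors cover counting error and the spread of these samples only.

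Genes were kept with filterByExpr by group, scaled by TMM, and tested with edgeR 4.0.16 (glmQLFit and glmQLFTest, R 4.3.3) with genotype as the sole term and Benjamini-Hochberg adjustment over 13646 genes. The SE was obtained from the F statistic, and the 95% interval uses the test's degrees of freedom. Log2 CPM has a prior count of 2, and ratios to Trp53 add 0.5 counts. DESeq2 1.42.0, limma-voom (limma 3.58.1), other scalings, other filters, litter as a block and leaving out each sample were alternatives. All models were run on simulated data, from which no error rate or power is drawn for the spread of these samples. The biological coefficient of variation, the spread between samples beyond counting error, was 0.602 in controls and 1.01 in knockouts. Replicate numbers are the litters of the labels, which pair the samples. The correlation of deviations from the genotype means within litters was -0.022, -0.075 and 0.0034. Where nothing says that samples hold separate embryos, p-values measure only the spread between these samples. Symbols absent from the counts were matched through RefSeq synonyms, 6 in all. Lists hold genes named by background knowledge, and the members and lists were chosen with earlier results of these data known. Of each list the 3 genes with the smallest p and at least 1 CPM in either genotype are named. Exon lengths and positions are from GENCODE vM21 (GRCm38).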

Additional observations from a re-analysis of the deposited data

How the results depend on the processing

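The direction of the log2 fold change was kept under all alternatives run for 8 of the 10 genes. The exceptions were Trp53, at -0.094 under upper-quartile scaling and -0.0092 without control 3 (its range over leaving out 1 sample was -0.0092 to 0.090), and Phlda3, at -0.037 under limma-voom with sample quality weights, which was chosen after seeing the data, as were leaving out the mitochondrial genes and the other scalings of the spread of Trp53. Eda2r could not be tested with at least 10 counts in every sample. Scaling by library size only moved the median of all genes to 0.23, against 0.015, upper-quartile scaling to -0.104 and limma-voom to -0.14.

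The count of genes past the threshold was 0 in edgeR, 139 in DESeq2, 270 in DESeq2 with litter as a block, and 1 without a filter on low counts or with at least 10 counts in every sample. Leaving out each sample gave 0 to 0 of all genes and 0 to 0 of the 10. With litter as a replicate block, the pairing of the labels, edgeR called 0 of the 10 and DESeq2 1, Ccng1 (1.59; 1.67 in DESeq2 without the block, which also called 1). The block left the direction of all 10 as it was and gave sign-flip exact permutation p of 0.25 to 0.75 for the ratios to Trp53, where 0.25 is the smallest possible. The Phlda3 ratio ranged from -0.019 (without knockout 3) to 1.90 over leaving out 1 sample.

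Of the listed targets for arrest, 2 passed in DESeq2 with and without the block and 1 under either other filter, with a median of 0.082 under limma-voom and 0.10 (without knockout 3) to 0.73 over leaving out 1 sample. Of the targets for apoptosis, 2 passed in DESeq2 with the block, and with at least 10 counts the median was 0.041 with 8 above 0; its leave-one-out range was 0.54 to 1.22 (without control 2). Of upstream genes, MDM2 partners and DREAM targets, DESeq2 with the block called 1 each (Hipk2, Gnl3 and Cdc20), against 1.98% of all genes. Without the block it called 1 MDM2 partner, Gnl3, against 1.02%. The median of upstream genes was -0.022 under limma-voom and -0.065 under upper-quartile scaling, with 8 above 0, and -0.13 to 0.056 over leaving out 1 sample. That of MDM2 partners was -0.014, -0.086, 0.25 (library size only) and -0.12 (quality weights), and -0.14 to 0.1003. That of DREAM targets was -0.19 under library size only, with 5 above 0, as against 2 to 5 over leaving out 1 sample. That of relatives ran from -0.65 to -0.055 over leaving out 1 sample, and was -0.00996 under library size only. Genes less variable than Trp53 numbered 8 under upper-quartile scaling and 469 under library size only. Depth limits Eda2r most, at 0 to 115 counts per sample.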
